A study of Mus musculus with 8 samples.

Results

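The genes described here encode the proteins of the cytosolic ribosome, the particle that translates messenger RNA outside the mitochondria. Members were taken by symbol alone: Rpl, Rps or Rplp, a number, and at most one of the letters a, x, y or l. The pattern took 81 of the 48587 symbols in the count table, namely 47 of the large subunit, 31 of the small subunit and 3 of the P stalk, which recruits elongation factors to the large subunit. It leaves out components with other names, of which Rpsa, Fau, Rack1, Rps3a1 and Rpl36al are taken up further on. All 81 symbols matched 1 gene of GENCODE M21 (mm10), and the genes lie on 19 chromosomes.

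RNA of the whole mouse aortic tree was sequenced as stranded poly-A libraries in 4 groups of 2 libraries. Tet2KO_VitD and Tet2KO_vehicle were mice labelled as lacking Tet2 in vascular smooth muscle cells and given VitD or vehicle. WT_VitD and WT_vehicle were mice labelled WT, which the series describes as littermate controls, with the same treatments. The sources used here give no Cre driver, dose, duration, age, sex or number of mice per library. Nor do they say whether the 2 libraries of a group are separate mice, so the p-values reflect library-to-library spread that may be technical.

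Ribosomal proteins are made in nearly equal amounts because each ribosome holds, with few exceptions, 1 copy of each. Their messenger RNAs begin with a 5′ terminal oligopyrimidine (TOP) tract, a C followed by a run of C and U, through which the kinase mTORC1 and the protein LARP1 set their translation and stability. The transcripts are short, abundant and found in every cell, so their share of a library is often read beside the make-up of the tissue and the growth state of its cells.

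Sequences around annotated transcription starts are shown because that tract is the one feature of the transcripts that the members are known to share. RefSeq promoters (GRCm38.p6) were on hand for 59 of the 81 members. Each line gives 15 bases before and 15 bases from the annotated start, 5′ to 3′ on the gene's strand, for some of the members named below. A larger share of the lines shown has the run described next than of all 59 members. Rpl34 has another entry, without such a run, that is not shown. Capitals mark a run of at least 6 C or T that begins with C within 10 bases of the start; Rplp0 and Rpl10 have none there, and the run of Rpl27a goes on past the window.
Rpl35 (chr2:39005117-39005146, minus strand): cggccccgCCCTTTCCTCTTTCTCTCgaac
Rplp2 (chr7:141447636-141447665, plus strand): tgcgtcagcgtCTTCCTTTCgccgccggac
Rps6 (chr4:86857353-86857382, minus strand): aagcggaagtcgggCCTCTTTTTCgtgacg
Rpl15 (chr14:18270972-18271001, minus strand): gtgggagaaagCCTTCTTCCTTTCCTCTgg
Rpl27a (chr7:109519180-109519209, plus strand): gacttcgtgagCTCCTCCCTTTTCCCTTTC
Rpl12 (chr2:32961697-32961726, plus strand): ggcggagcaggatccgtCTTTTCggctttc
Rpl34 (chr3:130730384-130730413, minus strand): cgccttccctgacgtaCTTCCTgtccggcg
Rplp0 (chr5:115559452-115559481, plus strand): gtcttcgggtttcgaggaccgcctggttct
Rpl10 (chrX:74270801-74270830, plus strand): gttgttacagtggaagataggccgcctata

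Such a run, searched on the gene's strand, was present for 30 of the 59 members (50.8%), against 20.4% of the 27025 genes with a RefSeq promoter and 22.0% of those that passed the filter on low counts. Over 300 bases (250 before and 50 from the start, both strands), CCGGAAGT, the core letters bound by ETS factors, stood in 11 of the 59 members (18.6%), in 4.31% of all genes and in 8.03% of those past the filter. AAGATGGC, letters of the YY1 motif, stood in 5 of the 59 (8.47%), in 3.19% of all genes and in 4.76% of those past the filter. TATAAA in the 40 bases before the start, on the gene's strand, stood in 0 of the 59 members, in 2.78% of all genes and in 1.95% of those past the filter. These are matches of letters, and annotated starts can lie some bases away from the start used in the aorta.

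Libraries held 15679274 to 22332149 counts. The Tet2 row did not follow the knockout label. Its level, as CPM (the count scaled by the TMM-adjusted library size), was 26.6 and 37.6 in Tet2KO_VitD libraries, against 18.3 and 20.0 in WT_VitD libraries. It was 42.0 and 35.2 CPM in Tet2KO_vehicle libraries, against 35.8 and 32.2 CPM in WT_vehicle libraries, so each genotype comparison rests on the label. The library names carry numbers in 2 ranges. Both WT_VitD libraries and Tet2KO_VitD 1 are in the higher range and the other 5 are in the lower one, so treatment and number range cannot be told apart in WT.

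VitD libraries of WT mice devoted a larger share of their counts to ribosomal protein genes than vehicle libraries did. The members took 5.15% and 5.23% of all counts in the WT_VitD libraries, against 2.22% and 2.45% in the WT_vehicle libraries. In the libraries labelled Tet2 knockout they took 4.58% and 2.41% under VitD, against 1.99% and 2.15% under vehicle. Tet2KO_VitD 1 stood near the WT_VitD libraries, whereas Tet2KO_VitD 2 lay between the 2 WT_vehicle libraries. The difference in mean share was 2.86 percentage points in WT (5.19 ± 0.0604% under VitD and 2.33 ± 0.165% under vehicle, SD, n = 2 each). It was 1.43 points in the libraries labelled Tet2 knockout (3.50 ± 1.54% under VitD and 2.07 ± 0.113% under vehicle, SD, n = 2 each). With 2 libraries against 2, an exact two-sided permutation test can give no p below 0.333, which is what both comparisons gave.

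**Figure D1:**
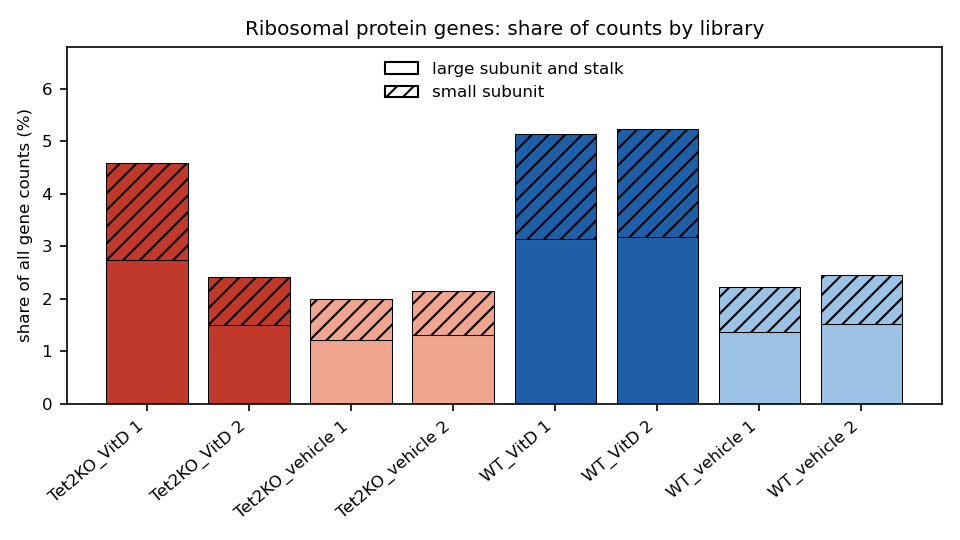
Share of all gene counts taken by the 81 ribosomal protein genes in each library (vertical axis, percent), split into large subunit with stalk (plain) and small subunit (hatched). The WT_VitD libraries stand at 5.15% and 5.23% and Tet2KO_VitD 1 at 4.58%, whereas the other 5 libraries stand between 1.99% and 2.45%.

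Both subunits took part. The ratio of large subunit (with stalk) to small subunit counts was 1.55 and 1.54 in the WT_VitD libraries, against 1.62 in both WT_vehicle libraries. It was 1.47 and 1.63 in the Tet2KO_VitD libraries, against 1.58 and 1.59 in the Tet2KO_vehicle libraries. In RNA of a whole tissue, a gene's level cannot tell apart fewer or more cells of a type and less or more RNA per cell.

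Markers of several cell types also moved between these libraries. The sum of 4 endothelial markers was 2460 and 2073 CPM in WT_VitD libraries, against 1307 and 1163 CPM in WT_vehicle libraries. It was 4020 and 1161 CPM in Tet2KO_VitD libraries, against 1528 and 1656 CPM in Tet2KO_vehicle libraries. Of these 4 markers, 3 had a log2 fold change above 0 for VitD under each genotype label. Markers of fibroblasts, B cells, cardiac muscle and fat were summed too and are not given here. The summed level of 6 macrophage markers was 2016 and 2441 CPM in WT_VitD libraries, against 457.7 and 476.4 CPM in WT_vehicle libraries. It was 2091 and 1171 CPM in Tet2KO_VitD libraries, against 618.1 and 731.7 CPM in Tet2KO_vehicle libraries. The sum of 4 proliferation markers was 76.1 and 137 CPM in WT_VitD libraries, against 30.1 and 7.58 CPM in WT_vehicle libraries. It was 73.1 and 46.2 CPM in Tet2KO_VitD libraries, against 18.8 and 19.4 CPM in Tet2KO_vehicle libraries, so Tet2KO_VitD 2 lay above both vehicle libraries for these markers and for the macrophage markers. The sum of 6 smooth muscle markers was 22011 and 14776 CPM in WT_VitD libraries, against 28407 and 29260 CPM in WT_vehicle libraries. The smooth muscle sum in the libraries labelled Tet2 knockout was 19808 and 27429 CPM under VitD, against 29085 and 27238 CPM under vehicle. Of these 6 markers, 1 had a log2 fold change above 0 for VitD under each genotype label. Tagln, of this list, had 6618 and 4573 CPM in WT_VitD libraries, against 4954 and 5926 CPM in WT_vehicle libraries. It had 6373 and 4764 CPM in Tet2KO_VitD libraries, against 4601 and 4646 CPM in Tet2KO_vehicle libraries. The sum of 4 neutrophil markers was 38.2 and 68.5 CPM in WT_VitD libraries, against 8.89 and 4.10 CPM in WT_vehicle libraries, and 25.8 and 15.97 CPM in Tet2KO_VitD libraries, against 13.1 and 9.27 CPM in Tet2KO_vehicle libraries. That of 6 T cell and thymocyte markers was 3.91 and 2.60 CPM in WT_VitD libraries, against 79.5 and 3.02 CPM in WT_vehicle libraries, and 2.55 and 1.67 CPM in Tet2KO_VitD libraries, against 12.6 and 23.8 CPM in Tet2KO_vehicle libraries. In the 4 VitD libraries and WT_vehicle 2, 1 or 2 of these 6 were at 0. None of the markers in the other lists of this paragraph with sums given was at 0 in any library. Their part in the level of the ribosomal protein genes was not tested.

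In WT, ribosomal protein genes were higher under VitD almost without exception. Of the 81 members, 79 passed the filter on low counts. By edgeR's quasi-likelihood test 68 of these rose at an adjusted p under 0.05 and none fell, where a rise was called for 10.6%, a fall for 9.47% and either for 20.1% of all 16194 genes tested. The log2 fold change was above 0 for all 79, from 0.10 for Rpl24 to 1.74 for Rpl23a, with a median of 1.28, and the median of all genes tested was -0.03. For 77 of the 79, both WT_VitD libraries lay above both WT_vehicle libraries, which was so for 33.8% of all genes. At an unadjusted p under 0.05 there were 75 members, all higher, and 38.0% of all genes had such a p in either direction. DESeq2 called 73 members, all higher, and 13.1% of all genes with an adjusted p as higher. Calls came to 38 of 45 tested genes of the large subunit (median 1.21), 27 of 31 of the small subunit (median 1.28) and all 3 of the stalk (median 1.54).

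The calls in WT come from 4 libraries whose treatment and number range cannot be told apart. Without WT_VitD 1, WT_VitD 2, WT_vehicle 1 or WT_vehicle 2 the median log2 fold change was 1.28, 1.26, 1.16 and 1.35. Without Tet2KO_vehicle 1 or Tet2KO_vehicle 2, which share the estimate of spread, it was 1.28 in each case. Fewer members were called in each of these fits, which leave 1 library in a group. With the number range as a covariate 1 member, Rpl12, was called and the median was 0.30. The term for that covariate came only from the gap between Tet2KO_VitD 1 and Tet2KO_VitD 2. The fit carries that gap over to WT and cannot separate number range from treatment there. Removing the trend of each library with transcript length left 32 calls and a median of 0.92. Removing that with length and GC content left 44 calls and a median of 0.89. The share of all genes called in these refits is not given here, so their calls show only how far the calls moved.

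**Figure D2:**
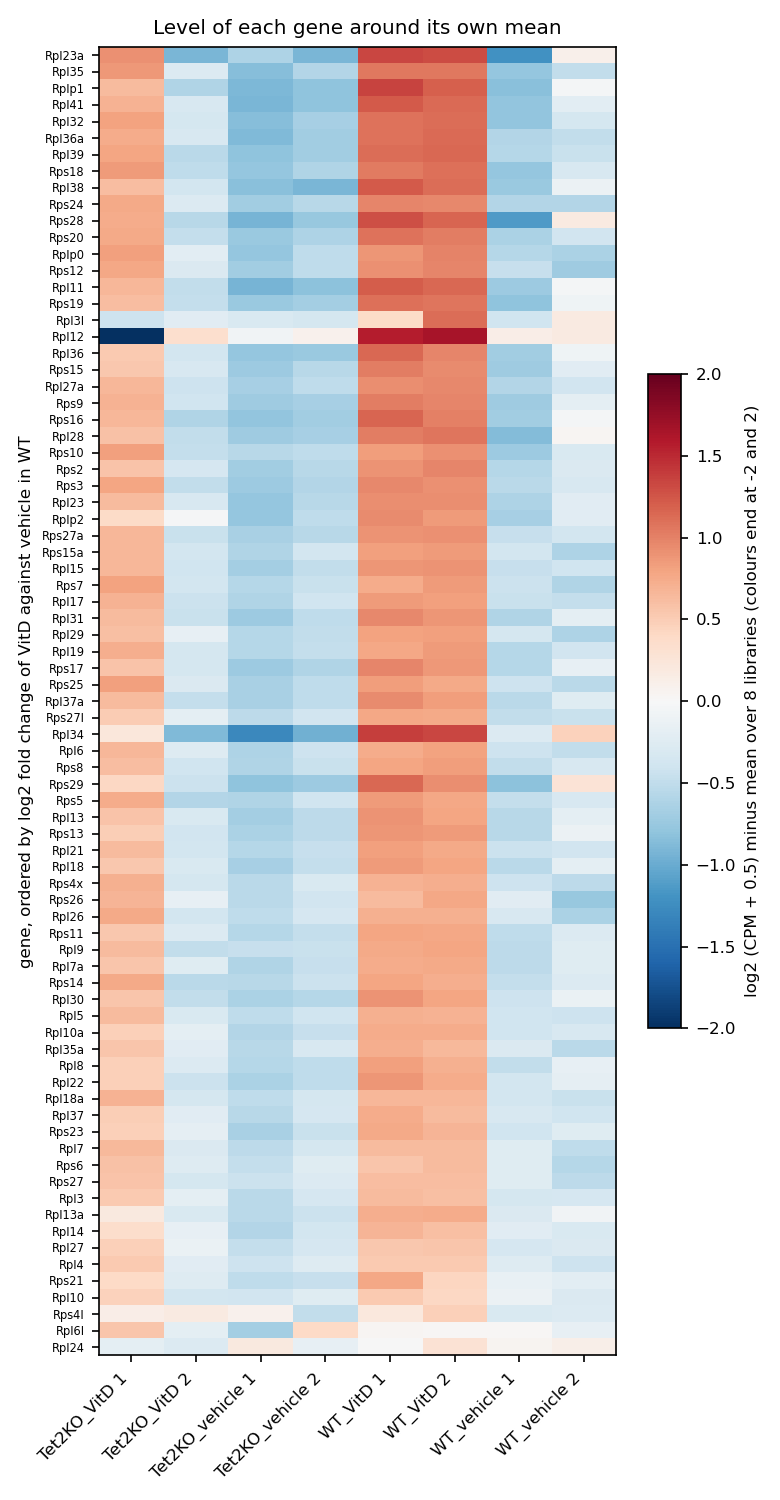
Level of each of the 79 tested ribosomal protein genes (rows, ordered by log2 fold change of VitD against vehicle in WT) in the 8 libraries (columns), as log2 (CPM + 0.5) minus the gene's mean over libraries. The colours end at -2 and 2; the WT_VitD libraries and Tet2KO_VitD 1 are above the gene means for nearly all genes, and Rpl12 in Tet2KO_VitD 1 lies beyond the scale.

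All 3 stalk proteins rose. Rplp0, the stalk base, had 1971 and 2119 CPM in WT_VitD libraries, against 718.7 and 690.1 CPM in WT_vehicle libraries. The groups did not overlap, and the log2 fold change was 1.54 (SE 0.328, adjusted p = 0.0190, edgeR). Rplp1, one of the acidic P proteins, had 1646 and 1462 CPM in WT_VitD libraries, against 359.1 and 625.3 CPM in WT_vehicle libraries. WT_vehicle 2 stood well above WT_vehicle 1, and the log2 fold change was 1.66 (SE 0.407, adjusted p = 0.0263, edgeR). Rplp2, the other acidic protein, had 504.6 and 473.2 CPM, against 165.5 and 223.0 CPM (log2 1.33, SE 0.238, adjusted p = 0.0125, edgeR).

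Among the called members the largest rises were in Rpl35, Rplp1, Rpl41, Rpl32, Rpl36a and Rpl39. Rpl35, which lies by the exit of the nascent chain tunnel, had 445.6 and 447.0 CPM in WT_VitD libraries, against 124.6 and 152.1 CPM in WT_vehicle libraries (log2 1.69, SE 0.342, adjusted p = 0.0162, edgeR). Both VitD libraries were nearly equal and far above vehicle. Rpl41, the shortest ribosomal protein, had 1036 and 976.1 CPM, against 255.8 and 381.8 CPM (log2 1.66, SE 0.341, adjusted p = 0.0171, edgeR). Rpl32, Rpl36a and Rpl39, a protein of the tunnel wall, had log2 fold changes of 1.65, 1.65 and 1.63. Rpl23a, also at the tunnel exit, had the largest fold change of all (1.74) and was not called (adjusted p = 0.0587, edgeR). It stood at 438.1 and 427.5 CPM in WT_VitD libraries, against 74.1 and 184.6 CPM in WT_vehicle libraries, so the vehicle libraries differed from each other by more than for most members.

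Other members with known roles of their own had smaller fold changes. Rps6, the small subunit protein phosphorylated by S6 kinase downstream of mTORC1, had 767.7 and 809.7 CPM in WT_VitD libraries, against 439.6 and 350.3 CPM in WT_vehicle libraries (log2 0.998, SE 0.290, adjusted p = 0.0428, edgeR). Rpl3, next to the peptidyl transferase centre, had a log2 fold change of 0.97 (adjusted p = 0.0356), Rpl22, which also binds RNA outside the ribosome, one of 1.08 (adjusted p = 0.0315), and the X-linked Rps4x one of 1.18 (adjusted p = 0.0376), all by edgeR. Rpl10, which completes the maturation of the large subunit, had 1370 and 1276 CPM, against 882.7 and 787.4 CPM. Its groups did not overlap, but its log2 fold change of 0.66 (SE 0.281, adjusted p = 0.119, edgeR) was not called. DESeq2 called it (adjusted p = 0.0469). Its log2 value turned to -0.15 once the number range entered edgeR as a covariate, a term set by the Tet2KO_VitD libraries alone.

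Of the 11 tested members that were not called, 6 had log2 fold changes of 0.66 to 1.21 with adjusted p between 0.0506 and 0.119: Rps29, Rps21, Rpl4, Rps14, Rps4l and Rpl10. Rpl23a is described above. The other 4 were Rpl12 (log2 1.46, SE 0.912), described below, and the scarce Rpl3l, Rpl6l and Rpl24.

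Paralogues with restricted expression were near the floor of detection. Rpl10l, a paralogue of Rpl10 known from the testis, had no count in any library, and Rpl39l, a testis paralogue of Rpl39, had at most 0.397 CPM; neither passed the filter. Rpl3l, which replaces Rpl3 in heart and skeletal muscle, had 0.794 and 1.64 CPM in WT_VitD libraries, against 0.249 and 0.627 CPM in WT_vehicle libraries (log2 1.46, SE 0.678, adjusted p = 0.149, edgeR). The sum of 8 skeletal muscle markers was 102.8 and 440.8 CPM in the same WT_VitD libraries and 13.8 to 33.4 CPM in the other 6, so Rpl3l was highest where these markers were highest; their part in it was not tested. Rps27l, a paralogue of Rps27 and a target of p53, was well expressed and rose, with 136.8 and 134.7 CPM in WT_VitD libraries, against 56.6 and 58.3 CPM in WT_vehicle libraries (log2 1.24, SE 0.229, adjusted p = 0.0131, edgeR). Rps4l had a log2 fold change of 0.66 (adjusted p = 0.0861, edgeR).

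In the libraries labelled Tet2 knockout the rise was much larger in 1 of the 2 VitD libraries. EdgeR called none of the 79 members for VitD against vehicle, where it called 0.198% of all genes (0.179% higher, 0.0185% lower), and 59 members were higher at an unadjusted p under 0.05 (13.3% of all genes had such a p in either direction). DESeq2 called 9, all higher, and 2.49% of all genes as higher. The median log2 fold change was 0.77, and 77 of the 79 were above 0. Both Tet2KO_VitD libraries lay above both Tet2KO_vehicle libraries for 63 of the 79 and below for 1. This was so for 23.7% and 22.2% of all genes. Without Tet2KO_VitD 2 the median was 1.18, and without Tet2KO_VitD 1 it was 0.24.

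Set against the mean of both Tet2KO_vehicle libraries, Tet2KO_VitD 1 had a median log2 difference of 1.18 over the members, and Tet2KO_VitD 2 one of 0.23. Tet2KO_VitD 1 lay above both vehicle libraries for 76 of the 79 members, where it did so for 41.5% of all genes. Tet2KO_VitD 2, whose number is in the range of the vehicle libraries, lay above both for 65 of the 79, where it did so for 34.8% of all genes. Against all 4 vehicle libraries, it was above every one for 26 of the 79 members and below every one for 1, where it was above for 21.5% and below for 21.1% of all genes.

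The members with the smallest p were Rplp2 and Rpl36a. Rplp2 had 342.5 and 257.6 CPM in Tet2KO_VitD libraries, against 151.8 and 183.7 CPM in Tet2KO_vehicle libraries (log2 0.84, SE 0.236, adjusted p = 0.211, edgeR). The groups did not overlap. Rpl36a had 299.98 and 142.4 CPM, against 96.8 and 110.5 CPM (log2 1.09, SE 0.310, adjusted p = 0.217, edgeR), with Tet2KO_VitD 2 much nearer to vehicle than its partner. Rplp0 showed the same layout, with 1885 and 923.0 CPM under VitD, against 624.1 and 746.8 CPM under vehicle (log2 1.03, adjusted p = 0.253, edgeR). Rps6 had 783.8 and 438.4 CPM under VitD, against 376.0 and 441.9 CPM, so that Tet2KO_VitD 2 lay within the vehicle values.

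**Figure D3:**
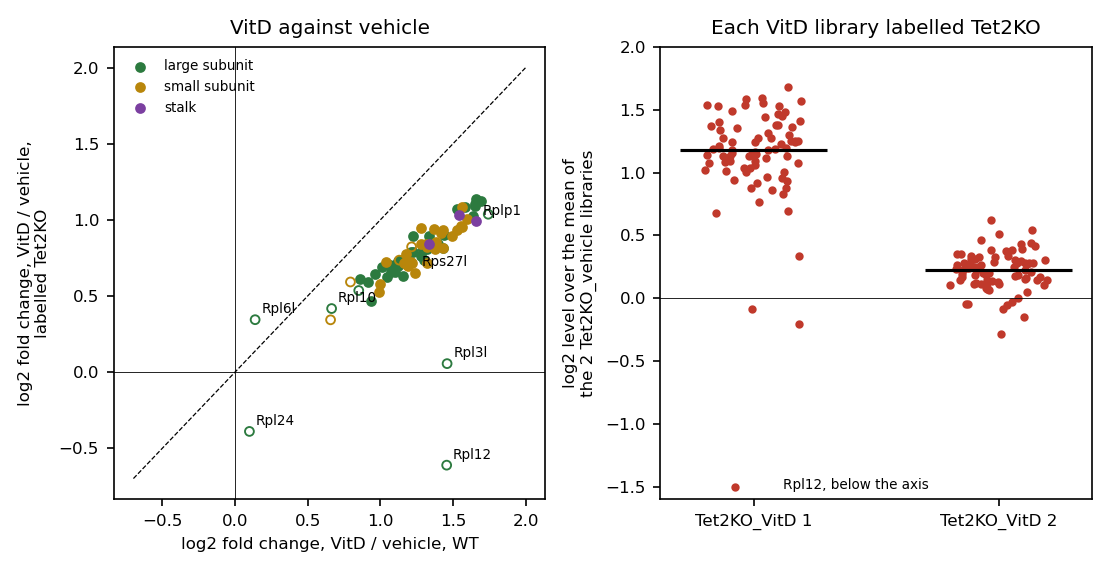
Left, log2 fold change of VitD against vehicle in the libraries labelled Tet2KO (vertical) and in WT (horizontal) for the 79 tested members, coloured by subunit and filled where called in WT; the dashed line marks equal values. Right, log2 level of each member in each Tet2KO_VitD library over the mean of the 2 Tet2KO_vehicle libraries, with the median as a bar: 1.18 in Tet2KO_VitD 1 and 0.23 in Tet2KO_VitD 2, and Rpl12 drawn at the lower edge.

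Between genotypes no member was called. Under VitD the members were lower in the libraries labelled Tet2 knockout than in WT libraries by a median log2 of 0.62 (median -0.62, range -2.21 to 0.26), and 27 were lower at an unadjusted p under 0.05, where 10.6% of all genes had such a p in either direction. EdgeR called 0% of all genes in this comparison. DESeq2 called 1 member, Rpl34, and 0.335% of all genes as lower. Both Tet2KO_VitD libraries lay below both WT_VitD libraries for 67 of the 79 members and above for 0. This was so for 21.6% and 22.2% of all genes. Without Tet2KO_VitD 1 the median was -1.25, and without Tet2KO_VitD 2 it was -0.24. Under vehicle the median was -0.15, and no member was called by edgeR or DESeq2, which called 0% and 0.105% of all genes. At an unadjusted p under 0.05 stood 1 member, lower, and 2.97% of all genes. Both Tet2KO_vehicle libraries lay below both WT_vehicle libraries for 22 of the 79 members and above for 0. This was so for 15.5% and 14.3% of all genes. The interaction of genotype and VitD had a median of -0.48 over the members. No member was called for it by edgeR or DESeq2, which called 0% and 0.0959% of all genes, and none had an unadjusted p under 0.05, where 6.21% of all genes did. Rps27l had the smallest p for it (log2 -0.59, SE 0.320, adjusted p = 0.813, edgeR).

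Because the family moved as a block, each gene was also read relative to the family median of its own library, as the log2 of its level over that median. On this scale, whose reference is taken from these same members, most varied little. The SD over the 8 libraries had a median of 0.175 over the 79 members, and 62 of them were under 0.25. Groups were also compared for overlap on this scale. Both WT_VitD libraries lay above both WT_vehicle libraries for 14 of the 79 and below for 29. Both Tet2KO_VitD libraries lay above both WT_VitD libraries for 35 and below for 13. For VitD in the libraries labelled Tet2 knockout the counts were 19 and 12, and for genotype under vehicle 10 and 10. No such count was made for all genes on this scale, so these counts are descriptions and do not by themselves show shifts. The steadiest were Rpl37a (SD 0.0455), Rps2 (0.0554), Rpl15 (0.0587), Rps27a (0.0590) and Rpl27a (0.0594). Rps2, a small subunit protein at the entry of the mRNA channel, lay 0.84 and 0.90 above the median in Tet2KO_VitD libraries, against 0.82 in both Tet2KO_vehicle libraries, and 0.83 and 0.97 above it in WT_VitD libraries, against 0.81 and 0.86 in WT_vehicle libraries.

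**Figure D4:**
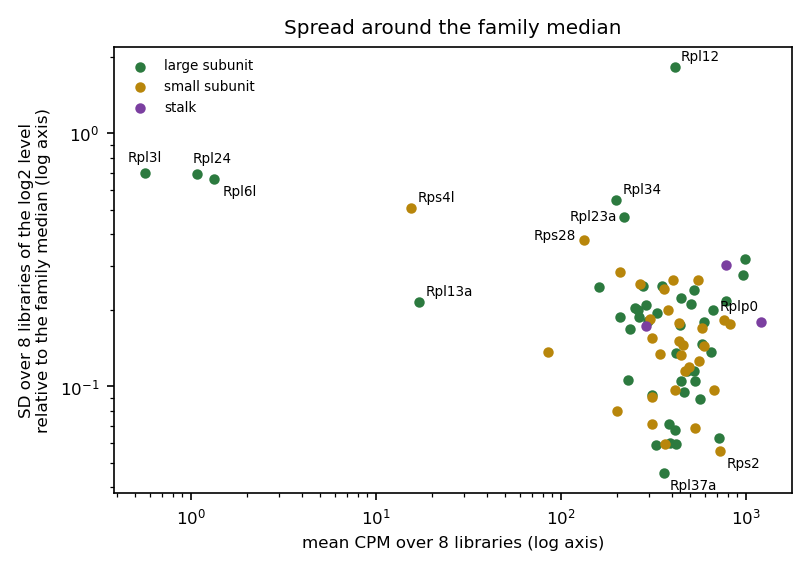
SD over the 8 libraries of each member's log2 level relative to the family median (vertical, log axis) against its mean CPM (horizontal, log axis). Most members lie below an SD of 0.25; Rpl12 (1.82) stands far above genes of its own level, and Rpl34 (0.546) is the next among genes above 100 CPM.

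Tested with libraries scaled to the family median, no member was called by edgeR in any of the 5 contrasts. On that scale edgeR called 62.9% of all genes for VitD against vehicle in WT (61.4% lower, 1.56% higher), and the median of all genes was -1.35. It called 0.0926% of all genes for VitD in the libraries labelled Tet2 knockout (0.0618% higher, 0.0309% lower), 0.0371% for genotype under VitD (0.0185% in each direction), and 0% for genotype under vehicle and for the interaction. For VitD against vehicle in WT the smallest p was that of Rpl10. Its relative level was 0.99 and 0.95 in WT_VitD libraries, against 1.82 and 1.42 in WT_vehicle libraries (log2 fold change -0.66, SE 0.377, adjusted p = 0.123, edgeR). Both VitD libraries lay below both vehicle libraries, a difference that was not called. At an unadjusted p under 0.05 there were no members in 3 contrasts and 1, Rpl34, in each genotype comparison. Such a p was held by 67.9% of all genes for VitD in WT, 13.2% for VitD in the libraries labelled Tet2 knockout, 1.74% for genotype under vehicle, 40.3% for genotype under VitD and 9.27% for the interaction. DESeq2 on the same scale called Rpl34 under VitD, where it called 0.102% of all genes as lower, and no member elsewhere. In the other contrasts it called 60% of all genes for VitD in WT, 0.411% for VitD in the libraries labelled Tet2 knockout, 0.025% for genotype under vehicle and 0.0143% for the interaction.

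Rpl12, a protein at the stalk base, departed from the family in a single library. It had 298 counts in Tet2KO_VitD 1 and 8038 in Tet2KO_VitD 2, against 4388 and 5374 in Tet2KO_vehicle libraries, and 12657 and 15625 in WT_VitD libraries, against 4975 and 5592 in WT_vehicle libraries. The level in Tet2KO_VitD 1 (18.5 CPM) was 14.5-fold below the lowest of the other 7 (269.3 CPM). Relative to the family it lay at -4.87 there and between 0.12 and 0.42 in the other 7 libraries, where it was among the ordinary members. Rpl12 (chr2:32961559-32965345, plus strand) had no exon base in another gene on its own strand, and 4.51% of its exon bases lie in Lrsam1 on the other strand.

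The low value was shared by few other genes. Among genes with at least 50 CPM in each of the other 7 libraries, those at least 5-fold lower in a single library numbered 6 in Tet2KO_VitD 1 and 0 in each other library. Besides Rpl12 these were Rrp1, a nucleolar protein of ribosome assembly, Hsp90aa1, a chaperone, Ucp1 of brown fat, and the mitochondrial ribosomal RNAs mt-Rnr1 and mt-Rnr2, all named after their values were seen. Rrp1 had 59 counts there against at least 1622 elsewhere, Hsp90aa1 144 against at least 6305, and mt-Rnr2 99 against at least 8664. Every value of Rpl12 that includes this library rests on it: the fold change of VitD in the libraries labelled Tet2 knockout was -0.85 on the family scale and 0.12 without Tet2KO_VitD 1.

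Rpl34 was lower, relative to the family, in every library labelled Tet2 knockout. It had 2994 and 1945 counts in Tet2KO_VitD libraries, against 6308 and 7095 in WT_VitD libraries, and 1055 and 1451 in Tet2KO_vehicle libraries, against 2126 and 3847 in WT_vehicle libraries. Relative to the family, it lay at -1.55 and -1.69 in Tet2KO_VitD libraries and at -1.82 and -1.64 in Tet2KO_vehicle libraries, against -0.72 in both WT_VitD libraries and -0.92 and -0.42 in WT_vehicle libraries. All 4 libraries labelled Tet2 knockout were below all 4 WT libraries. Among the 79 members, Rpl34 alone (1.27%) was lower in this way and Rpl19 alone (1.27%) was higher. The share of all genes on the family scale was not computed. On the TMM scale no member separated the 8 libraries by label, whereas 0.889% of all genes did so as higher and 0.914% as lower. These shares of all genes are on another scale than the member shares of 1.27%, so they are no background for them. Whether 1 of 79 members is more than usual on the family scale was not tested.

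By edgeR on the TMM scale, Rpl34 had a log2 fold change of -1.59 for the libraries labelled Tet2 knockout against WT under VitD (SE 0.371, unadjusted p = 0.00203, adjusted p = 0.457). Under vehicle it was -1.27 (SE 0.369, unadjusted p = 0.00749, adjusted p = 1). Neither was called. On the family scale the values were -0.90 (adjusted p = 0.102) under VitD and -1.08 (adjusted p = 1) under vehicle, by edgeR. By DESeq2 the difference under VitD was called (log2 -1.62, adjusted p = 0.00181). Without Tet2KO_VitD 1 edgeR called it too (log2 -2.27, adjusted p = 0.0241). Over all alternatives run for that value, the adjusted p ranged between 7.67e-08 with no filter and 0.972 without WT_VitD 2.

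Rpl34 (chr3:130726831-130730398, minus strand) lies on the chromosome of Tet2, 2.73 Mb away. A processed copy with its own row, Rpl34-ps1, had 1653 and 950 counts in Tet2KO_VitD libraries, against 990 and 1197 in WT_VitD libraries, and 682 and 667 in Tet2KO_vehicle libraries, against 365 and 11 in WT_vehicle libraries. The sources used here do not say how reads that match both were assigned. With both rows summed, Rpl34 made up 0.624% and 0.538% of the family's counts in Tet2KO_VitD libraries, against 0.884% and 0.871% in WT_VitD libraries. The sum was 0.548% in both Tet2KO_vehicle libraries, against 0.717% and 0.925% in WT_vehicle libraries, so the groups stayed apart with the copy included.

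**Figure D5:**
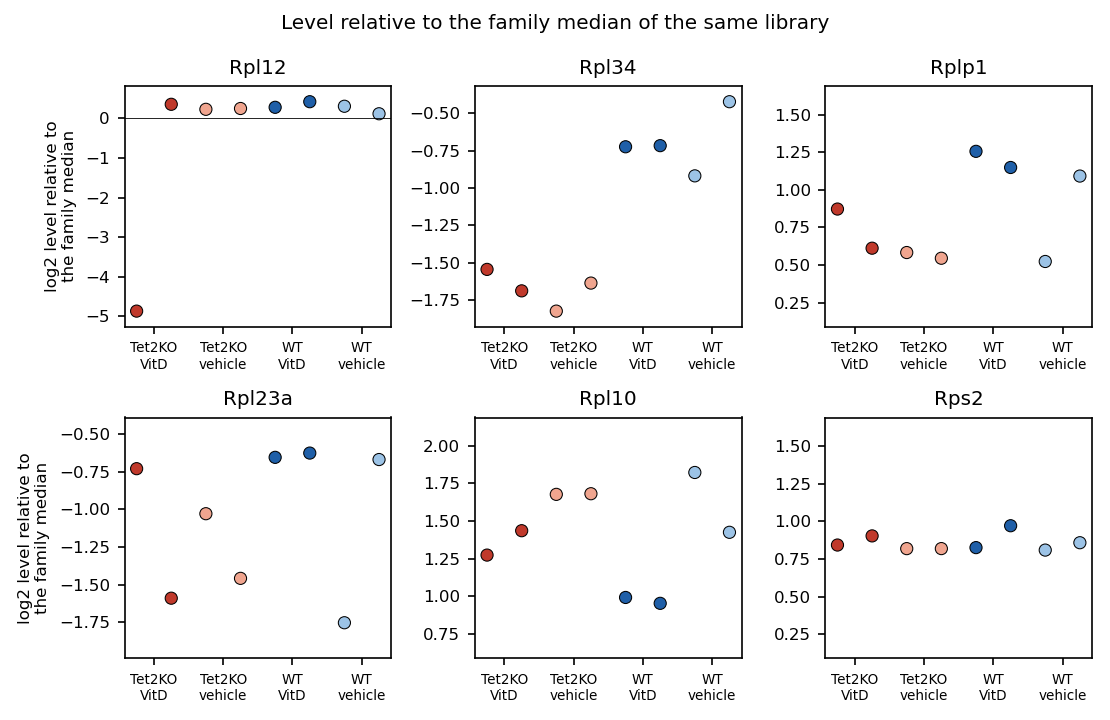
Log2 level of 6 members relative to the family median of the same library (vertical; ranges differ between panels), 1 point per library in 4 groups. Rpl12 falls to -4.87 in Tet2KO_VitD 1, and Rpl34 is lower in all 4 libraries labelled Tet2KO. Rplp1 and Rpl23a separate the 2 WT_vehicle libraries, and Rpl23a also separates the 2 Tet2KO_VitD libraries. Rpl10 is lowest in WT_VitD, and Rps2 stays between 0.81 and 0.97.

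Within the vehicle groups, the 2 WT_vehicle libraries differed from each other for several members. Relative to the family, Rpl23a lay at -1.03 and -1.46 in Tet2KO_vehicle libraries, against -1.75 and -0.67 in WT_vehicle libraries. Rplp1 lay at 0.58 and 0.55, against 0.52 and 1.09, and Rps29 at -1.14 and -1.19, against -1.27 and -0.41. Outside the vehicle groups, Rpl23a lay at -0.73 and -1.59 in Tet2KO_VitD libraries, against -0.65 and -0.63 in WT_VitD libraries. Over the 76 members of at least 10 CPM, Spearman's rho between a member's deviation from its own mean relative level and its transcript GC content was 0.41 in WT_vehicle 2, 0.20 and 0.19 in the WT_VitD libraries, and -0.16, -0.04, -0.19, -0.29 and -0.32 in the remaining libraries. With transcript length it was -0.26 in WT_vehicle 2, -0.28 and -0.22 in the WT_VitD libraries and 0.08 to 0.32 in the remaining 5. These correlations are across genes, which share their libraries, and are descriptions.

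By level, the members spanned a wide range, mostly at the low end because of a few rows. Averaged over the 8 libraries, Rplp0 (1210 CPM), Rpl10 (989 CPM), Rpl4 (963 CPM), Rps4x (823 CPM) and Rpl7 (785 CPM) were highest, and 73 of the 81 were above 100 CPM. Per kilobase of transcript the order changed, with Rplp1 first (1558 CPM per kilobase), Rps12 second (1411) and then Rpl10 (1196). The 5 lowest by CPM were Rpl6l (1.33 CPM), Rpl24 (1.08 CPM), Rpl3l (0.562 CPM), Rpl39l (0.232 CPM) and Rpl10l (0 CPM).

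Rpl24 and Rpl13a are core proteins of the large subunit, yet their rows were far below the family. Rpl24 had 14 and 18 counts in Tet2KO_VitD libraries, against 21 and 16 in Tet2KO_vehicle libraries, and 16 and 25 in WT_VitD libraries, against 18 and 21 in WT_vehicle libraries. Rpl13a had 297 and 294, against 178 and 211, and 407 and 481, against 210 and 269. In GENCODE M21, 71.5% of the exon bases of Rpl24 lie in another gene on the same strand (Gm28037) and 59.3% of those of Rpl13a do (Gm45713, Mir5121). Of the 79 members with a principal transcript to compare, 74 had no such overlap, and Rps10, with 53.6%, had ordinary counts (8768 in Tet2KO_VitD 1). The sources used here give neither the annotation release nor the rules for counting reads, so the rows of Rpl24 and Rpl13a are uncertain as levels. Pseudogene rows named after members, 180 of them with a count, added 0.27% to 0.52% of the family's own counts per library.

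The counts for lists of other genes in WT stand beside 10.6% of all genes called higher and 9.47% called lower. Of 5 components examined that the symbol pattern leaves out, 4 rose in WT and none fell (edgeR, median log2 1.17). Rpsa, a small subunit protein also known as a laminin receptor, had a log2 fold change of 1.44 (adjusted p = 0.0133), Rack1, a scaffold on the small subunit, one of 1.33 (adjusted p = 0.0267), and Rpl36al one of 1.17 (adjusted p = 0.0120). Rps3a1 differed, with 245.6 and 246.3 CPM in WT_VitD libraries, against 338.4 and 351.6 CPM in WT_vehicle libraries, and 692.8 and 326.7 CPM in Tet2KO_VitD libraries, against 104.9 and 339.4 CPM in Tet2KO_vehicle libraries. Rpl22l1, a paralogue of Rpl22 outside the pattern, rose too (log2 1.77, adjusted p = 0.0474), whereas Rpl7l1 had a log2 fold change of 0.41 and was not called.

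Of 18 translation factors whose mRNAs also carry a TOP tract, 7 were called higher in WT and none lower, against 10.6% and 9.47% of all genes, with a median log2 of 0.75. Tpt1, the translationally controlled tumour protein, had 2631 and 2608 CPM in WT_VitD libraries, against 1015 and 916.0 CPM in WT_vehicle libraries (log2 1.44, adjusted p = 0.0270, edgeR). The elongation factor subunits Eef1b2 and Eef1g had log2 fold changes of 1.38 (adjusted p = 0.0171) and 1.29 (adjusted p = 0.0145). Of 13 initiation factors 4 were higher and 1 was lower, with a median of 0.20. Eif4a1, the cap-complex helicase (log2 0.95), Eif6, which keeps free large subunits apart (0.91), and Eif5a (0.90) were the ones that rose most.

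Of 28 genes of ribosome assembly 3 were called higher and none lower (median 0.27), a share of higher calls near the 10.6% of all genes: Nhp2, of the pseudouridylation complex, at 1.83 (adjusted p = 0.0117), Fbl, the rRNA methyltransferase fibrillarin, at 0.71 (adjusted p = 0.0461), and Bop1 at 0.64 (adjusted p = 0.0306). Of 11 genes of RNA polymerase I transcription 1 was higher (Polr1d, 0.84) and 1 lower (Taf1a, -1.43), with a median of -0.03. Of 8 tested hosts of small nucleolar RNAs 3 were higher (Zfas1, Snhg8 and Gas5; log2 1.24, 0.99 and 0.83), with a median of 0.82. Of 8 genes of ribosome quality control none was higher and Zfp598, a sensor of collided ribosomes, was lower (log2 -0.77, adjusted p = 0.0304).

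Among 14 regulators of ribosomal protein genes 3 were higher and 3 lower in WT, against 10.6% and 9.47% of all genes. Myc, a transcription factor of growth genes, had 26.2 and 25.3 CPM in WT_VitD libraries, against 4.66 and 5.01 CPM in WT_vehicle libraries (log2 2.41, SE 0.295, adjusted p = 0.00370, edgeR). For the libraries labelled Tet2 knockout the values were 36.3 and 20.9 CPM under VitD, against 7.18 and 8.88 CPM under vehicle (log2 1.83, SE 0.285, adjusted p = 0.0524, edgeR), and both VitD libraries stood above both vehicle libraries. Mtor, the kinase of mTORC1, fell by 0.95 (adjusted p = 0.0316) and its inhibitor Tsc2 fell by 1.03 (adjusted p = 0.0192) on the log2 scale in WT.

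Of 31 subunits of oxidative phosphorylation with short transcripts, 3 were called higher in WT and none lower (Cox7b, Cox7a2 and Cox7c; log2 0.80, 0.77 and 0.64), and the median log2 was 0.50. That share of higher calls is near the 10.6% of all genes. Of 76 tested proteins of the mitochondrial ribosome, 13 were higher and 1 lower, with a median of 0.45; Mrpl54, Mrpl20 and Mrpl52 had log2 fold changes of 1.30, 1.17 and 1.16. The median transcript of the 81 members was 827 bases, against 2022.5 bases over all annotated symbols with a count. In none of the other 4 contrasts was a gene of these lists called by edgeR.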

How the data were processed

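The authors deposited raw read counts per gene symbol for the 8 libraries. Per the submitters' processing notes the build was mm10 and the tools were featureCounts 2.0.2, STAR 2.7.8a and Trimmomatic 0.39, with the release of the annotation, the strand option and the handling of multi-mapping reads not given in the sources used here. The protocols in the labels name TRIzol extraction and a stranded poly-A kit.

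The analysis of counts used R 4.3.3 and edgeR 4.0.16. The filterByExpr filter kept 16194 genes and 79 of the 81 members. All 8 libraries entered a quasi-likelihood model with TMM scaling, a mean for each group and no covariate, which leaves 4 residual degrees of freedom. It gave 5 contrasts, with Benjamini-Hochberg adjustment over all genes at 0.05. Standard errors (SE) are the fold change over the root of its F value. The same model was refitted with libraries scaled to the family median, the median over tested members of log2 of the count plus 0.5 per library size. Both fits were also run on simulated counts with planted changes. CPM is the count scaled by the TMM-adjusted library size. Lengths and positions come from GENCODE M21, promoters from RefSeq (GRCm38.p6). Totals of 15679274 to 22332149 counts limit precision for rows of a few counts.

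The members, lists and tests were chosen with earlier results of these data known. Genes named were set by a rule: 9 members and 8 paralogues always, the largest called changes or the 2 smallest p per contrast and scale, and the 5 extremes by level and by spread. Rpl23a, Rps29, Rps21, Rps14, Rpl19, Rpl13a, Rps10, Rps12 and the genes with isolated low values include names chosen after their values were seen. Alternatives were other scalings and filters, DESeq2 1.42.0, a replicate block, the number range as covariate, fits restricted to the compared groups, leaving out each library and, added after seeing the data, trends with transcript length and GC content. One gene outside the symbol pattern is not reported here.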

Additional observations from a re-analysis of the deposited data

How the results depend on the processing

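The median rise of the members under VitD in WT stayed between 1.16 and 1.35 when each library was left out, and calls ran from 0 to 75. With the number range as covariate, whose term rests on the Tet2KO_VitD libraries alone, 1 member was called. Without the trend of transcript length 32 were called, and without that of length and GC content 44, with a median of 0.89. In the libraries labelled Tet2 knockout, 37 members were called with no filter and 9 by DESeq2; leaving out single libraries gave 0 to 73 calls, medians of 0.24 to 1.18 and share differences of 0.34 to 2.52 points, the ends set by Tet2KO_VitD 1 and Tet2KO_VitD 2. For genotype under VitD, 15 were called with no filter, 1 with the covariate and 1 by DESeq2, and single omissions gave 0 to 62 calls, medians of -1.25 to -0.24 and share differences of -2.78 to -0.60 points. For genotype under vehicle 1 was called with no filter. For the interaction 1 was called with no filter and 1 with the covariate, and omissions gave 0 to 1 calls, medians of -1.08 to -0.068 and share differences of -2.51 to -0.34. Apart from DESeq2, the calls of these settings are given without the share of all genes called in them. They show only how far the calls moved. The causes of these differences were not tested.

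On the family scale the covariate called 1 member for VitD in WT, 1 for genotype under VitD and 1 for the interaction, each time Rpl12. All of these calls rest on the low Rpl12 count of Tet2KO_VitD 1. The fit of only the groups compared called 3 for VitD in WT, and DESeq2 called 1 for genotype under VitD. Omissions gave 0 to 4 calls for VitD in WT, 0 to 2 in the libraries labelled Tet2 knockout, 0 to 4 for genotype under VitD and 0 to 1 for the interaction.

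Directions turned for Rpl10 with the covariate (-0.15 in WT, -0.047 in the libraries labelled Tet2 knockout, where omissions ran from -0.038 to 0.77). They also turned for Rpl12 on the family scale in the libraries labelled Tet2 knockout (0.12 with the covariate, -5.11 to 0.12 over omissions). For VitD in those libraries the covariate takes up Tet2KO_VitD 1, so it gives nearly the same estimate as leaving that library out. Rpl3l in the libraries labelled Tet2 knockout ran from -0.23 to 0.27 over omissions. Rps29 for genotype under vehicle ran from -1.04 to 0.055, or -0.76 to 0.11 on the family scale. With the replicate block 58 members were called in WT, all among the 68, and Rpl3l in the libraries labelled Tet2 knockout stood at -0.0038. Deviations of same-numbered libraries correlated at -0.115 to 0.138 between groups, which does not show whether such libraries share more than a number. With the crossed pairing 0 members were called for either genotype comparison, and so it was without pairing. Depth limits Rpl3l, Rpl6l, Rpl24 and Rpl39l, with at most 34 counts in any library.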
